A study of Homo sapiens with 12 samples.

Results

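The 3 GADD45 genes and 7 kinase genes of the JNK and p38 pathways were followed by their listed gene names among the 60671 genes of one expression table. The 10 members were GADD45A, GADD45B and GADD45G, the kinase of MAP2 kinases MAP3K4, the MAP2 kinases MAP2K4 and MAP2K7, the JNK genes MAPK8 and MAPK9, and the p38 genes MAPK11 and MAPK14. Expression was given as FPKM, fragments scaled to gene length and to the fragments of the library, so that levels of different genes can be set side by side. RNA came from cells labelled Jurkat, a T cell acute lymphoblastic leukemia line, in 4 groups of 3 libraries. NC cells, labelled WT and described in the study's methods as carrying a GFP vector, and PTPN21 cells, carrying a lentiviral construct of FLAG-tagged PTPN21 under the SFFV promoter, were each treated for 48 h with vincristine (VCR), a drug that blocks microtubule assembly, or with DMSO, giving NC+DMSO, NC+VCR, PTPN21+DMSO and PTPN21+VCR. PTPN21 is a tyrosine phosphatase, here expressed from a viral promoter in transduced cells. Nothing in the labels says that the 3 libraries of a group came from separate cultures, and p-values then measure only the spread between these libraries.

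GADD45 proteins are small stress-induced proteins that have no enzyme activity of their own. They bind MAP3K4 and release it from its self-inhibited form, and MAP3K4 then phosphorylates MAP2 kinases, of which MAP2K7 acts on JNK, MAP2K3 and MAP2K6 act on p38, and MAP2K4 can act on both. GADD45B is also known to bind and inhibit MAP2K7, and GADD45A to bind p38 in T cells. Kinase activity is set by phosphorylation, and the values below are RNA levels of the genes.

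Before the members, the labels were checked. PTPN21 was between 0.0212 and 0.569 FPKM in the NC libraries and between 4.34 and 10.5 FPKM in the PTPN21 libraries. Of 11 T lymphocyte markers, 7 stayed under 1 FPKM in all 12 libraries, and CD247, CD28 and LCK were listed at 0 in every one. CD3D (61.8 to 140 FPKM) and PTPRC (8.07 to 33.1 FPKM) were present. The epithelial genes KRT8 (236 to 1186 FPKM), KRT18 (91.9 to 436 FPKM) and EPCAM (58.4 to 123 FPKM) and the erythroid gene HBA1 (49.4 to 190 FPKM, with reads that may be shared with a near-identical copy) were also present, so the defining T cell markers go against the label and the cells are named here by the label only. The T lymphocyte markers summed to 89.8 to 113 FPKM in NC+DMSO and 131 to 164 FPKM in the other groups. Of 4 B cell markers 3, and of 3 fibroblast markers all, stayed under 1 FPKM, with MS4A1 and COL1A2 at 0, and among 4 myeloid markers LYZ was at 9.08 to 17.0 FPKM and CD14 and CSF1R under 1 FPKM. The 3 epithelial markers summed to 387 to 588 FPKM in the DMSO libraries and 1153 to 1676 FPKM in the VCR libraries, and the 2 erythroid markers given here, HBA1 and HBB, to 82.5 to 190 FPKM and 49.4 to 75.5 FPKM. Under DMSO the erythroid sum was 82.5 to 87.5 FPKM in NC cells and 133 to 190 FPKM in PTPN21 cells. The epithelial and erythroid sums therefore moved with VCR, as several members did, and the erythroid sum also differed between the constructs under DMSO. The erythroid sum was nearly all HBA1, since HBB was at 0 to 1.66 FPKM. The T lymphocyte sum also differed between the constructs under DMSO, and with VCR in NC cells. The part of these lists in the results below was not tested. In bulk RNA, fewer cells of a type and less RNA per cell cannot be told apart. Fragments per library, estimated from the steps between low FPKM values, were 14350000 to 17850000 in NC and 20500000 to 23900000 in PTPN21, so depth and construct cannot be told apart. In NC cells the estimate was at most 16300000 under DMSO and at least 17050000 under VCR. In PTPN21 cells it was at least 22300000 under DMSO and at most 22050000 under VCR. Depth and VCR within a construct can therefore not be told apart either.

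GADD45A made up nearly all GADD45 RNA in these cells, and GADD45G was listed at 0 in all 12 libraries. GADD45A was 95.3% to 99.6% of the summed FPKM of the 3 genes in every library, and GADD45B was the rest. The family sum was 113 ± 19.6 FPKM (SD, n = 3) in NC+DMSO and 87.8 ± 5.77 in NC+VCR, and with PTPN21 it was 89.2 ± 10.1 under DMSO and 59.3 ± 4.73 under VCR. It followed GADD45A.

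**Figure D1:**
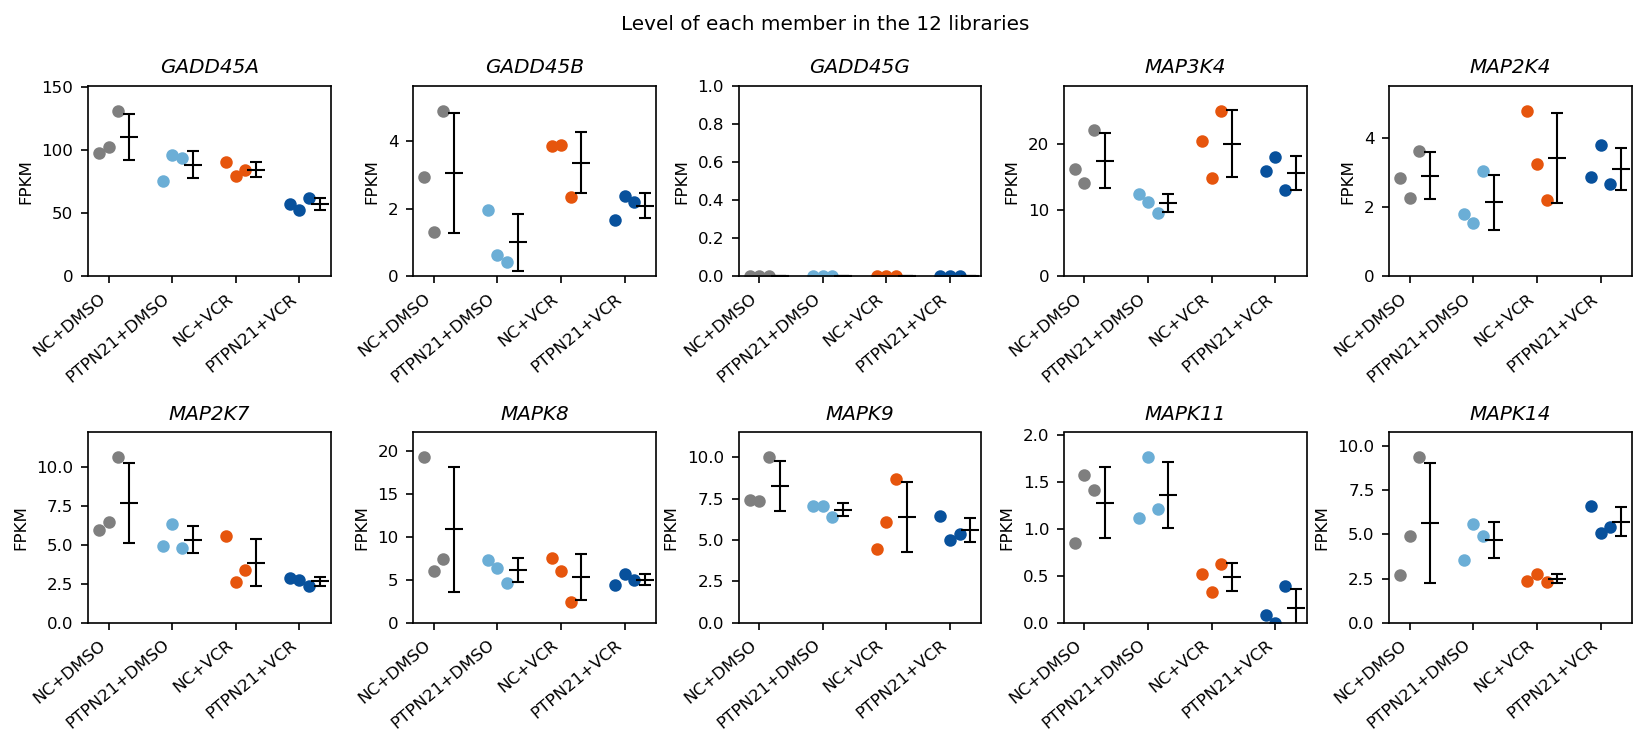
Level of each member in FPKM (vertical axes, each from 0) in the 4 groups, with a point for each library and a bar for the mean ± SD of 3 libraries. GADD45A was lowest in PTPN21+VCR, GADD45G stayed at 0, and MAPK14 was between 2.33 and 2.79 FPKM in NC+VCR and between 5.08 and 6.63 FPKM in PTPN21+VCR.

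GADD45A (chromosome 1, 67685061 to 67688338, plus strand, GENCODE release 29 on GRCh38) is the member induced by p53 and by DNA damage. It was listed at 97.4, 102 and 131 FPKM in NC+DMSO and 90.2, 79.0 and 83.9 FPKM in NC+VCR, and 75.7, 95.8 and 93.2 FPKM in PTPN21+DMSO and 57.5, 52.2 and 61.8 FPKM in PTPN21+VCR. The 3 PTPN21+VCR libraries lay below the other 9, and the VCR libraries of each construct lay below its DMSO libraries. In PTPN21 cells GADD45A fell with VCR by 0.61 on the log2(FPKM + 1) scale (95% interval -0.92 to -0.31, limma adjusted p = 0.00671). In NC cells the difference was -0.37 (-0.67 to -0.07, adjusted p = 0.0567), and it turned to 0.019 (adjusted p = 0.929) with median ratio scaling and passed the threshold without NC+DMSO replicate 1 (-0.45, adjusted p = 0.0477) or PTPN21+DMSO replicate 1 (adjusted p = 0.0487), whereas without NC+DMSO replicate 3 it was -0.24 (adjusted p = 0.197). With PTPN21 under VCR, set against NC+VCR, it was -0.55 (-0.86 to -0.25, adjusted p = 0.067), and it passed without NC+DMSO replicate 3 (adjusted p = 0.0331). The difference between the 2 VCR responses of GADD45A was itself -0.24 (-0.67 to 0.19, adjusted p = 0.591), and the call in PTPN21 cells alone does not show that the constructs differ.

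GADD45B (chromosome 19, 2476122 to 2478259, plus strand), first known as a primary response gene of myeloid differentiation, was about as abundant per length as MAP2K4. Its FPKM was 2.94, 1.32 and 4.89 in NC+DMSO and 3.87, 3.89 and 2.33 in NC+VCR, and 1.96, 0.632 and 0.417 in PTPN21+DMSO and 1.67, 2.38 and 2.21 in PTPN21+VCR. The lowest 2 libraries were both PTPN21+DMSO, at an estimated 21.3 and 30.1 fragments, and the 3 lay below all NC+VCR libraries, while every other pair of groups overlapped. The largest difference was -0.99 on the log2 scale for PTPN21+DMSO against NC+DMSO (95% interval -1.77 to -0.21, adjusted p = 0.111). Leaving out 1 library moved it between -1.34 (adjusted p = 0.032), without NC+DMSO replicate 2, and -0.67, and the threshold was passed in that 1 case of 12. Under VCR, PTPN21 against NC gave -0.48 (-1.26 to 0.29, adjusted p = 0.534) for GADD45B, an interval that holds both a large fall and no change.

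The promoters of the lower paralogs are shown because GADD45B was detected in all 12 libraries and GADD45G (chromosome 9, 89605013 to 89606555, plus strand) in none. No promoter entry was available for GADD45A, so it could not be set beside them. Each is the 250 bases before the RefSeq start on GRCh38.p14, plus strand, with matches to 6 searched motifs in capitals. GADD45B lies at chr19:2475877-2476126 and GADD45G at chr9:89604762-89605011.
GADD45B: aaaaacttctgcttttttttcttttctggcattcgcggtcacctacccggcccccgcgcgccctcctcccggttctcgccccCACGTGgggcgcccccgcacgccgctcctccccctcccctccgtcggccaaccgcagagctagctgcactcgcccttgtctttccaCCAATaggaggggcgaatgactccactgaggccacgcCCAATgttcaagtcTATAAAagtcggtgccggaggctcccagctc
GADD45G: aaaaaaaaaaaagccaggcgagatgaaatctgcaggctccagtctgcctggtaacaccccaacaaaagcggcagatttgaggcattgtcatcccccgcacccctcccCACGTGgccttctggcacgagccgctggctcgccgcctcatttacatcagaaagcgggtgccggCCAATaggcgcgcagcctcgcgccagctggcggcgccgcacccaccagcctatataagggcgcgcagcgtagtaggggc
The motifs, searched on both strands, were the CCAAT box CCAAT, the TATA box TATAAA, the GC box GGGCGG, the E-box CACGTG, the AP-1 site TGANTCA and the CRE TGACGTCA. They occurred in 32%, 10.7%, 42.6%, 6.3%, 6.6% and 1.6% of 35116 windows of this length. Both GADD45B and GADD45G held an E-box and a CCAAT box, and GADD45B held a TATA box that ended 26 bases before its start. The GADD45G window reads tatataag near its end, which the string TATAAA does not match, so the search shows no contrast in TATA boxes. No window of the 9 members with an entry matched AP-1 or CRE, which says only that these letters are not in these 250 bases.

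MAP3K4 (chromosome 6, 160991727 to 161117385, plus strand), the kinase that GADD45 proteins bind, was the most abundant kinase member. Its FPKM was 16.1, 14.1 and 22.1 in NC+DMSO and 20.4, 14.8 and 24.98 in NC+VCR, and 12.4, 11.2 and 9.57 in PTPN21+DMSO and 15.9, 17.99 and 12.9 in PTPN21+VCR. The PTPN21+DMSO libraries were the lowest 3 of the 12 and did not overlap with NC+DMSO or with PTPN21+VCR. Neither difference passed the threshold, with -0.60 for PTPN21+DMSO against NC+DMSO (95% interval -1.07 to -0.12, adjusted p = 0.117) and 0.46 for VCR in PTPN21 cells (-0.02 to 0.94, adjusted p = 0.138). With median ratio scaling the VCR difference of MAP3K4 in PTPN21 cells was 0.64 (adjusted p = 0.0316).

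Of the 2 MAP2 kinases, MAP2K7 fell with VCR in both constructs and MAP2K4 did not pass the threshold in any comparison. MAP2K7 (chromosome 19, 7903843 to 7914478, plus strand) acts on JNK. Its FPKM was 5.98, 6.45 and 10.6 in NC+DMSO and 5.57, 2.61 and 3.40 in NC+VCR, and 4.91, 6.33 and 4.77 in PTPN21+DMSO and 2.90, 2.74 and 2.36 in PTPN21+VCR. Each VCR group lay below its DMSO group, although the NC+VCR library at 5.57 was close to the NC+DMSO library at 5.98. The log2 difference was -0.84 in NC cells (95% interval -1.41 to -0.28, adjusted p = 0.0256) and -0.78 in PTPN21 cells (-1.35 to -0.21, adjusted p = 0.0414). The median over all 11591 tested genes was -0.36 and -0.17 in these comparisons, and once that shift was removed by median ratio scaling MAP2K7 gave -0.51 (adjusted p = 0.129) and -0.63 (adjusted p = 0.0679). The call in NC cells was also lost without NC+DMSO replicate 3, the library with the highest value, at -0.62 (adjusted p = 0.102), and without NC+VCR replicate 2 (adjusted p = 0.0874) or 3 (adjusted p = 0.0628), and the call in PTPN21 cells without any 1 of its 6 libraries (adjusted p 0.0733 to 0.132).

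MAP2K4 (chromosome 17, 12020824 to 12143830, plus strand), which acts on JNK and p38, was 2.85, 2.27 and 3.63 FPKM in NC+DMSO and 4.80, 3.27 and 2.22 FPKM in NC+VCR, and 1.82, 1.56 and 3.06 FPKM in PTPN21+DMSO and 2.87, 3.82 and 2.67 FPKM in PTPN21+VCR. All 4 groups overlapped. Its log2 differences ran from -0.33 to 0.41 over the 4 comparisons, with adjusted p from 0.285 to 0.925.

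Neither JNK gene passed the threshold in any comparison, although their summed level was lowest in PTPN21+VCR. The sum, with MAPK10 included, was 19.2 ± 6.82 FPKM (SD, n = 3) in NC+DMSO and 11.7 ± 0.582 in NC+VCR, and 13.0 ± 1.77 in PTPN21+DMSO and 10.6 ± 0.240 in PTPN21+VCR. The NC+VCR sums lay below the NC+DMSO ones and the PTPN21+VCR sums below those of all other libraries, with no test run on the sum. MAPK8 (JNK1, chromosome 10, 48306639 to 48439360, plus strand) was 19.3, 6.04 and 7.38 FPKM in NC+DMSO and 7.55, 6.05 and 2.41 FPKM in NC+VCR, and 7.31, 6.43 and 4.60 FPKM in PTPN21+DMSO and 4.37, 5.68 and 4.94 FPKM in PTPN21+VCR. NC+DMSO replicate 1 stood far above the other 11 libraries, and the VCR difference of MAPK8 in NC cells, -0.85 (95% interval -1.72 to 0.02, adjusted p = 0.117), was -0.38 without it. NC+VCR replicate 3 was the lowest of the 12, and without it the difference of MAPK8 between PTPN21+VCR and NC+VCR turned to -0.38 (adjusted p = 0.65). MAPK9 (JNK2, chromosome 5, 180233143 to 180292099, minus strand) ranged from 4.44 to 10.0 FPKM. Its PTPN21+DMSO libraries (6.40 to 7.08 FPKM) lay just below the NC+DMSO ones (7.36 to 10.0 FPKM), and its differences ran from -0.35 to -0.13 with adjusted p from 0.231 to 0.818. The log2 ratio of MAPK8 to MAPK9 was 0.21 ± 0.92 (SD, n = 3) in NC+DMSO and -0.29 ± 1.10 in NC+VCR, and -0.16 ± 0.23 in PTPN21+DMSO and -0.14 ± 0.32 in PTPN21+VCR. Both genes were at about the same level per length, and no difference in the ratio stood out in a two-sided exact permutation test (p = 0.6 to 0.9), which with 3 against 3 cannot go below 0.1.

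In the p38 arm, every PTPN21+VCR library had more MAPK14 than every NC+VCR library, a difference that did not pass the threshold, while MAPK11 and its chromosomal neighbour MAPK12 were lower under VCR in both constructs. MAPK14 (p38 alpha, chromosome 6, 36027677 to 36111236, plus strand), the p38 gene used in most cell types, was 2.36, 2.79 and 2.33 FPKM in NC+VCR and 6.63, 5.08 and 5.42 FPKM in PTPN21+VCR. It was 2.72, 4.91 and 9.36 FPKM in NC+DMSO and 3.58, 5.58 and 4.93 FPKM in PTPN21+DMSO. The 2 VCR groups did not overlap, and the 2 DMSO groups did, with NC+DMSO spanning nearly the whole range. The log2 difference under VCR was 0.94 (95% interval 0.26 to 1.62, unadjusted p = 0.0107 in limma, adjusted p = 0.144), so MAPK14 did not pass the threshold over all genes. Across all 21 alternative settings it stayed between 0.84 and 1.16 (adjusted p 0.0541 to 0.322). The VCR difference of MAPK14 was -0.81 in NC cells (-1.49 to -0.13, adjusted p = 0.0607), and 0.25 in PTPN21 cells (-0.43 to 0.93, adjusted p = 0.594). In NC cells it was -1.17 (adjusted p = 0.00991) without NC+DMSO replicate 1, -0.43 (adjusted p = 0.236) without NC+DMSO replicate 3 and -0.39 (adjusted p = 0.34) with quantile normalization. The difference between the constructs was 1.06 (0.10 to 2.01, adjusted p = 0.318), and 0.67 to 1.41 when 1 library was left out (adjusted p 0.238 to 0.549).

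**Figure D2:**
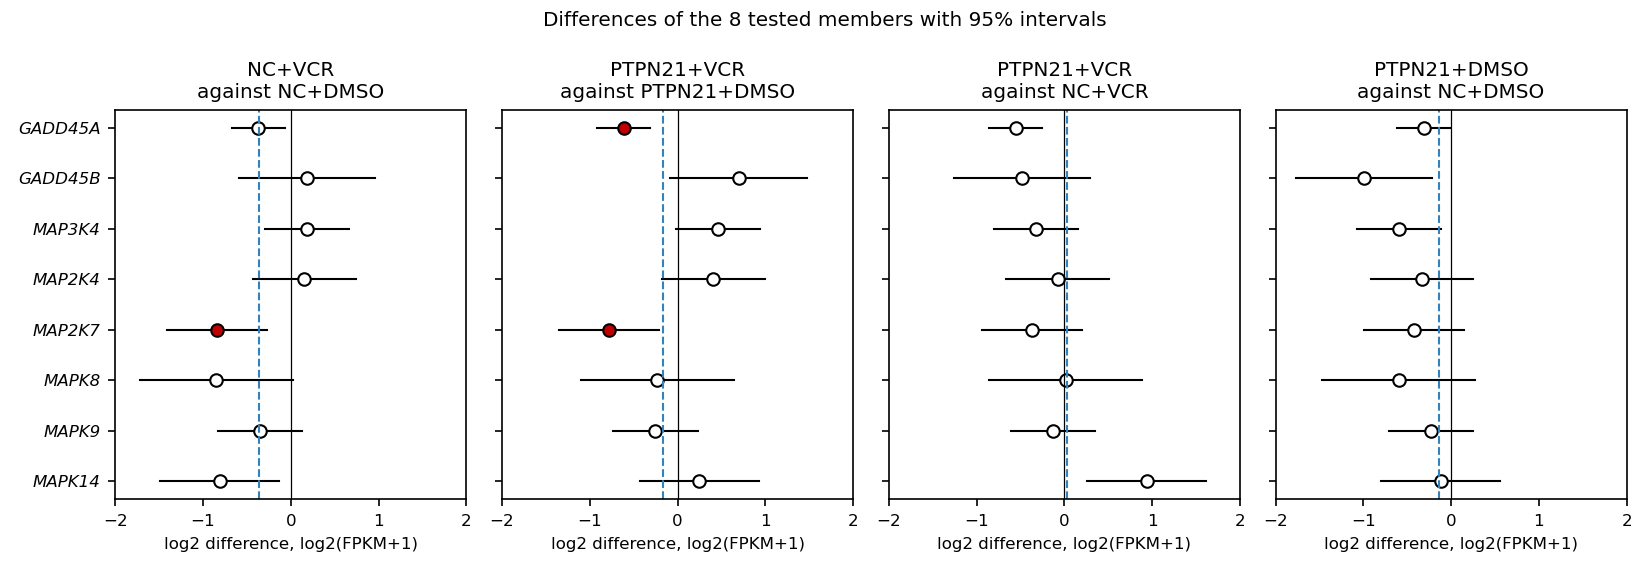
Log2 differences on the log2(FPKM + 1) scale (horizontal axis) of the 8 tested members in 4 comparisons, with lines for the 95% intervals, filled points for an adjusted p under 0.05 and a dashed line at the median of all tested genes. MAP2K7 was filled in both VCR comparisons, GADD45A in PTPN21 cells, and MAPK14 reached 0.94 in PTPN21+VCR against NC+VCR without passing.

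MAPK11 (p38 beta, chromosome 22, 50263713 to 50270767, minus strand) averaged 0.822 FPKM and stayed below the minimum of 1 for the test. It was 0.850, 1.57 and 1.42 FPKM in NC+DMSO and 0.515, 0.329 and 0.623 FPKM in NC+VCR, and 1.11, 1.76 and 1.21 FPKM in PTPN21+DMSO and 0.0854, 0 and 0.386 FPKM in PTPN21+VCR. All 6 VCR libraries lay below all 6 DMSO libraries. The PTPN21+VCR values stood on an estimated 0 to 22.9 fragments, and the others on 15.1 to 106. The difference in mean log2(FPKM + 1) was -0.60 in NC cells and -1.03 in PTPN21 cells, each with a two-sided exact permutation p = 0.1, the smallest that 3 against 3 allows. In the fit of all 28170 genes with no minimum, MAPK11 had an adjusted p of 0.0842 and 0.011 in these comparisons, in which 13.0% and 9.89% of all genes were called.

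MAPK12 (p38 gamma), no member but the nearest gene to MAPK11, lies 1887 bases from it with no gene annotated wholly between them. It was 7.61, 12.1 and 8.25 FPKM in NC+DMSO and 3.04, 2.28 and 2.78 FPKM in NC+VCR, and 11.04, 9.22 and 8.89 FPKM in PTPN21+DMSO and 1.80, 3.50 and 2.97 FPKM in PTPN21+VCR. Every VCR library was below every DMSO library. MAPK12 fell by 1.46 on the log2 scale in NC cells (95% interval -1.97 to -0.96, adjusted p = 0.000652) and by 1.54 in PTPN21 cells (-2.04 to -1.03, adjusted p = 0.000547). MAPK13 (p38 delta), the neighbour of MAPK14 across 16572 bases, was at 0 to 0.178 FPKM in the DMSO libraries and 0.166 to 0.613 FPKM in the VCR libraries, below the minimum for the test. In the limma fit with no minimum its VCR difference was 0.285 in NC cells (adjusted p = 0.094) and 0.395 in PTPN21 cells (adjusted p = 0.0324).

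**Figure D3:**
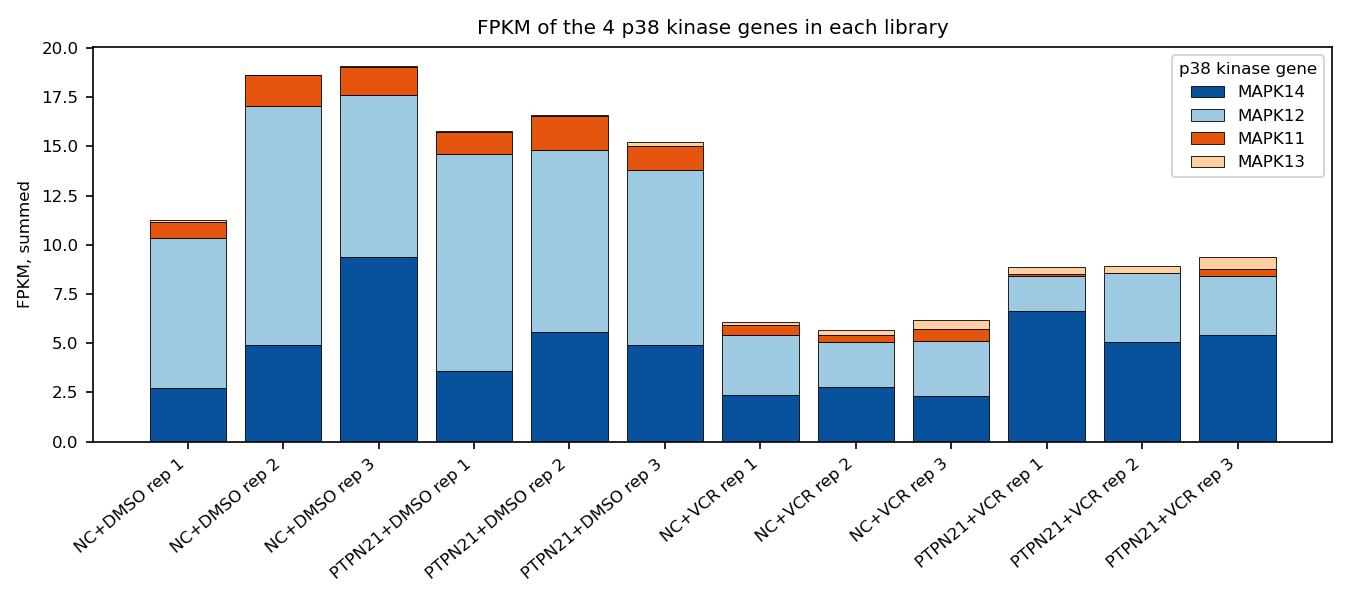
FPKM of the 4 p38 genes (vertical axis, stacked from 0) in each of the 12 libraries, with a colour for each gene. The bars were 11.3 to 19.1 FPKM high under DMSO and 5.64 to 9.39 FPKM under VCR, and MAPK14 took 22.7% to 49.0% of them under DMSO and 56.9% to 74.7% in PTPN21+VCR.

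MAPK14 held a larger share of the summed p38 level in each PTPN21+VCR library than in any other library, while its shares in the 2 DMSO groups overlapped. The summed FPKM was 16.3 ± 4.38 (SD, n = 3) in NC+DMSO and 5.97 ± 0.283 in NC+VCR, and 15.9 ± 0.706 in PTPN21+DMSO and 9.07 ± 0.277 in PTPN21+VCR. MAPK14 was 33.2% ± 13.8 of the sum in NC+DMSO and 42.0% ± 6.45 in NC+VCR, and 29.5% ± 5.997 in PTPN21+DMSO and 63.1% ± 10.0 in PTPN21+VCR. MAPK12 was 58.6% of the sum in NC+DMSO and 45.1% in NC+VCR, and 61.3% in PTPN21+DMSO and 30.3% in PTPN21+VCR. In PTPN21 cells MAPK14 itself averaged 4.69 FPKM under DMSO and 5.71 FPKM under VCR, so its larger share there went mostly with the lower sum. The log2 ratio of MAPK14 to MAPK11 was 2.54 ± 0.31 in PTPN21+VCR and 1.23 to 1.43 on average in the other groups. It differed by 1.31 between PTPN21+VCR and NC+VCR and by 1.28 between PTPN21+VCR and PTPN21+DMSO, each at the smallest two-sided exact permutation p of 0.1. MAPK11 was at 0 to 0.386 FPKM in PTPN21+VCR. With 1 added to each FPKM, the ratio there therefore rests mostly on MAPK14 and on the added 1.

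The promoters of 3 kinase genes, MAP2K7, MAPK11 and MAPK12, are shown. They were chosen because, within each construct, every VCR library lay below every DMSO library. That also held for other kinase genes, among them MAP2K3 and MAP3K11, whose promoters are not shown. The windows shown are RefSeq windows of 250 bases before the start on GRCh38.p14, at chr19:7903627-7903876 (plus strand), chr22:50270381-50270630 (minus strand) and chr22:50261684-50261933 (minus strand), with matches to the same motifs in capitals.
MAP2K7: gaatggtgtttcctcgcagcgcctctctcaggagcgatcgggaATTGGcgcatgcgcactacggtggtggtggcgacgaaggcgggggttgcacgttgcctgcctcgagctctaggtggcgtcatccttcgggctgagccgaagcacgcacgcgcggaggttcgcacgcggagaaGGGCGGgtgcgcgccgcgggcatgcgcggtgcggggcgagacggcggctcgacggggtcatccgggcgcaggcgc
MAPK11: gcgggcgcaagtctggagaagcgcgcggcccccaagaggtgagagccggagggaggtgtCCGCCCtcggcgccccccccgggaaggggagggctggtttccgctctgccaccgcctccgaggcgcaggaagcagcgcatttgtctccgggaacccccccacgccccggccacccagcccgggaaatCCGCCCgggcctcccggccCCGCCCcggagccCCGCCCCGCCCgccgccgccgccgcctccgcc
MAPK12: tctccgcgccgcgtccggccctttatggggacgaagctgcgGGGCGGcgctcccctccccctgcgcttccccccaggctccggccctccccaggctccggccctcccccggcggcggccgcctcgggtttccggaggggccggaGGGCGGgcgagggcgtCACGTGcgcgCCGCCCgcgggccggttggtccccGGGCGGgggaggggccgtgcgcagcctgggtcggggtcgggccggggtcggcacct
MAP2K7 held 1 GC box and 1 CCAAT box, MAPK11 held 5 GC boxes, 2 of them overlapping, and MAPK12 held 4 GC boxes and 1 E-box. GC boxes were also matched in MAP3K4, MAP2K4, MAPK8, MAPK9 and MAPK14, whose levels did not pass the threshold with VCR, and in neither GADD45B nor GADD45G. MAPK8 and MAPK9 also had lower VCR than DMSO means in both constructs, with libraries that overlapped. MAPK11 was itself below the minimum for that threshold test. G and C made up 70.8%, 79.2% and 82.0% of the windows of MAP2K7, MAPK11 and MAPK12, against a median of 58.0% over all windows. The windows of MAPK8 (80.4%), MAP3K4 (78.4%), the first MAPK9 entry (77.6%) and MAP2K4 (74.0%) held more G and C than that of MAP2K7, and none of these 4 genes passed the threshold with VCR.

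Counted over the 8 members that were tested, 1 of 8 was called for VCR in NC cells, where 36.2% of all tested genes were called, and 2 of 8 in PTPN21 cells, where 28.5% were called. The called members, MAP2K7 in both and GADD45A in PTPN21 cells, were all lower, as were 28.3% and 19.3% of all tested genes. Of all genes called in these comparisons 21.9% and 32.3% were higher, and with median ratio scaling 55.8% and 52.2%. The median log2 difference of the members was -0.36 in NC cells and 0.01 in PTPN21 cells, beside -0.36 and -0.17 for all tested genes. None of 8 was called for PTPN21+VCR against NC+VCR (1.82% of all genes), PTPN21+DMSO against NC+DMSO (6.34%) or the interaction of PTPN21 and VCR (0.129%). At an unadjusted p under 0.05 in limma the counts were 2, 3 and 1 of 8, beside 17.1%, 25.6% and 14% of all tested genes. Groups did not overlap for 2, 3, 2 and 3 of the 8 members in NC+VCR against NC+DMSO, PTPN21+VCR against PTPN21+DMSO, PTPN21+VCR against NC+VCR and PTPN21+DMSO against NC+DMSO, against 44.1%, 50.4%, 22.5% and 33.4% of all tested genes. In neither VCR comparison was the members' share of calls above that of all genes, and the results above are those of single genes. All 8 differences between PTPN21+DMSO and NC+DMSO were below 0, from -0.99 to -0.12, where the median of all genes was -0.14 (MAPK14 was at 0.035 with median ratio scaling), and NC+DMSO replicate 3, common to both comparisons with NC+DMSO, held the highest value of its group for 7 of the 9 detected members.

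The wider pathway was read from lists of 60 genes, of which 49 were tested. For VCR in NC cells 7 rose and 13 fell, where 7.91% of all tested genes rose and 28.3% fell. In PTPN21 cells 8 rose and 3 fell, where 9.22% of all tested genes rose and 19.3% fell. The rises in both comparisons include MAPK8IP1 and CDKN1A, which passed the minimum FPKM only through their VCR libraries, so these counts of rises are favoured by the minimum. PTPN21+VCR against NC+VCR gave 1 fall (0.820% of all tested genes), and neither the PTPN21+DMSO comparison nor the interaction gave a call (20 and 7 of 49 at an unadjusted p under 0.05 in limma, beside 25.6% and 14% of all tested genes). Their medians were -0.26 and 0.02 for VCR in NC and PTPN21 cells.

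Among 19 tested upstream kinases and their adaptors, 7 fell and none rose with VCR in NC cells, and 1 rose and 1 fell in PTPN21 cells. With 28.3% of all tested genes lower in NC cells, 7 of 19 is near the background. In PTPN21 cells 9.22% of all tested genes were higher and 19.3% lower, and no gene of this list was called for the interaction. TAB2 and TAB3, adaptors of the kinase MAP3K7, fell by 1.35 (adjusted p = 0.00399) and 1.22 (adjusted p = 0.00577) in NC cells. MAP3K11, a mixed lineage kinase upstream of JNK, fell by 1.16 in NC cells (adjusted p = 0.00386) and by 1.01 in PTPN21 cells (adjusted p = 0.00998). MAP4K3, a kinase upstream of MAP3 kinases, rose by 0.95 in PTPN21 cells (adjusted p = 0.00908). Of 5 other MAP2K and MAPK genes only MAPK12 was tested. MAP2K3 was at 0 to 1.13 FPKM, and MAP2K6 and the third JNK gene MAPK10 were each listed above 0 in 1 library, at 0.0116 and 0.0327 FPKM.

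**Figure D4:**
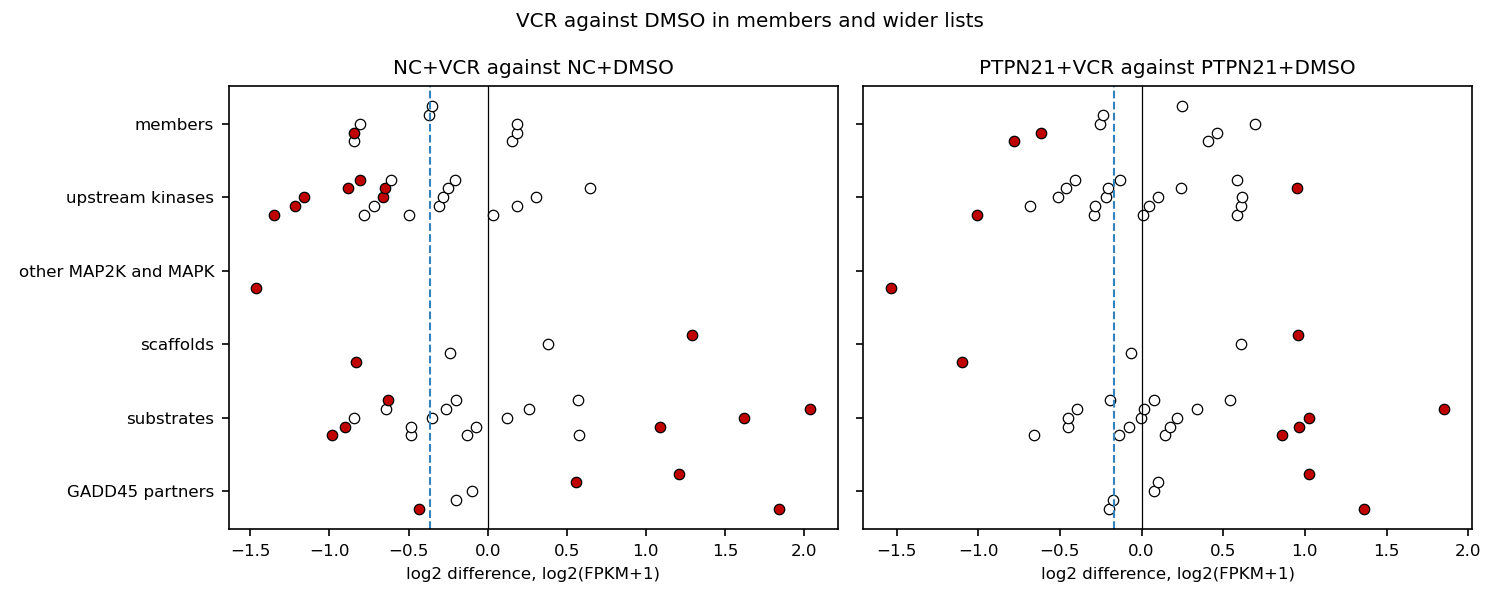
Log2 differences on the log2(FPKM + 1) scale (horizontal axis) of VCR against DMSO in NC cells (left) and PTPN21 cells (right), with a point for each tested gene of the members and of 5 wider lists, filled where the adjusted p was under 0.05. The dashed line is the median of all tested genes, and the 7 called upstream kinases in NC cells all lay to its left.

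Of 4 tested scaffold genes, MAPK8IP1, which holds JNK and its kinases together, rose by 1.29 in NC cells (adjusted p = 0.00406) and by 0.96 in PTPN21 cells (adjusted p = 0.023), from means of 0.260 and 0.453 FPKM under DMSO to 2.12 and 1.92 FPKM under VCR. ARRB2, an arrestin, fell by 0.83 (adjusted p = 0.0175) and 1.10 (adjusted p = 0.00487), the first being -0.46 (adjusted p = 0.181) with median ratio scaling. MAPK8IP1 passed the minimum FPKM only through its VCR libraries.

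Among 19 tested substrates, 3 rose and 3 fell in NC cells, and 4 rose and none fell in PTPN21 cells, against 7.91% higher and 28.3% lower of all tested genes in NC cells and 9.22% and 19.3% in PTPN21 cells. JUN, the transcription factor for which the kinase is named, rose from 28.9 ± 6.18 FPKM (SD, n = 3) in NC+DMSO to 121 ± 19.2 FPKM in NC+VCR, by 2.04 on the log2 scale (adjusted p = 5.29e-06). In PTPN21 cells JUN rose from 20.7 ± 1.65 to 77.5 ± 3.93 FPKM, by 1.85 (adjusted p = 1.02e-05). MEF2A, a factor that p38 phosphorylates, rose by 1.62 (adjusted p = 0.00102) and 1.02 (adjusted p = 0.0162). HSPB1, a small heat shock protein phosphorylated downstream of p38, rose by 1.09 in NC cells (adjusted p = 0.000202) and by 0.86 in PTPN21 cells (adjusted p = 0.00109), and ITCH, a ubiquitin ligase that JNK phosphorylates, rose by 0.96 in PTPN21 cells (adjusted p = 0.0411).

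All 6 genes whose products bind or act with GADD45 proteins were tested, and 3 rose and 1 fell with VCR in NC cells while 2 rose in PTPN21 cells, beside the same 7.91% higher and 28.3% lower, and 9.22% higher, of all tested genes. CDKN1A, the p21 inhibitor of cyclin-dependent kinases, rose by 1.84 in NC cells (adjusted p = 0.000459) and 1.36 in PTPN21 cells (adjusted p = 0.00351), from DMSO means of 0.656 and 0.697 FPKM, and like MAPK8IP1 it passed the minimum FPKM only through its VCR libraries. CCNB1, cyclin B1, rose by 1.21 (adjusted p = 7e-05) and 1.03 (adjusted p = 0.000236). TDG, a glycosylase that acts with GADD45A in DNA demethylation, was 28.5, 31.1 and 23.5 FPKM in NC+VCR and 15.5, 15.5 and 10.4 FPKM in PTPN21+VCR. Its log2 difference there was -0.97 (adjusted p = 0.025), the single call of the wider lists between these groups, and leaving out PTPN21+VCR replicate 3, its lowest library, gave -0.79 (adjusted p = 0.0915). The call was also lost without PTPN21+VCR replicate 1 or 2 or NC+VCR replicate 1 or 2 (adjusted p 0.0513 to 0.0819), and with no minimum FPKM (adjusted p = 0.0515), without the trend (adjusted p = 0.0504), with a replicate block (adjusted p = 0.0551) and with only the 2 groups compared (adjusted p = 0.0811). TDG rose by 0.56 with VCR in NC cells (adjusted p = 0.0327).

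Genes whose levels ran most like those of 3 members were read off by Pearson's r of log2(FPKM + 1) over the 12 libraries, which share the same 4 groups and depths. For GADD45A they were CHAF1A (r = 0.97), a subunit of chromatin assembly factor, TSPYL1 (0.96) and IQSEC1 (0.96), and CHAF1A averaged 62.7 FPKM in NC+DMSO and 38.4 in NC+VCR, and 36.7 in PTPN21+DMSO and 22.9 in PTPN21+VCR, which is the order of GADD45A apart from a swap of the middle pair. For GADD45B they were AC011330.1 (0.90), EXOC4 (0.89) and ZNF24 (0.87). For MAPK14 they were FP236241.1 (0.93), the phosphatase gene DUSP14 (0.89) and VPS39 (0.87), each with its lowest mean in NC+VCR. With so many genes and 12 libraries, values of this size are a description of these libraries.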

How the data were processed

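RNA-seq of 12 libraries in 4 groups of 3 was used. The authors deposited 1 table of FPKM for 60671 genes with human Ensembl identifiers. The submitters' processing notes name fastp and Bowtie2 without versions, and the build mm10, a mouse build that does not match the human identifiers. The counting program and annotation are not given in the sources used here, and neither is the VCR dose of these libraries. Positions and exon lengths came from GENCODE release 29, which held 58453 of the genes (96.3%).

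Values were taken to log2(FPKM + 1) from the authors' FPKM, a scale that understates changes of low genes. The 11591 genes averaging 1 FPKM or more were fitted with limma 3.58.1 in R 4.3.3, with 1 model of the 4 groups, an intensity trend and Benjamini-Hochberg adjustment over all genes, at a threshold of 0.05, in 5 comparisons. The fit was tested on simulated data. Members under the minimum and ratios of paralogs were tested with two-sided exact permutation tests in Python 3.11.15 with scipy 1.17.1. Depth was estimated from 8719 single-exon genes in a search from 10000000 to 25000000 fragments, a range set lower after some libraries had come out at doubled values, since steps of 1 and 2 fragments cannot be separated. By library, 26.8% to 38.1% of the values used lay within 0.1 of a whole number of fragments, so the depths and fragment counts are rough. The depth limits mainly low genes. Replicates correlated at 0.939 to 0.976 across genes. The members and lists were chosen with earlier results of these data known. The text names all 10 members, at most 3 called genes of each list and comparison by size of difference, the 3 genes most like GADD45A, GADD45B and MAPK14, and markers, except a marker that is not reported here. MAPK12, MAPK13, MAP2K3, MAP2K6 and MAPK10 are also given values as the other kinases of both arms. Promoter windows matched 9 of 10 members by symbol in RefSeq, all but GADD45A. Alternatives were a pseudocount of 0.1, no minimum, a minimum mean of 5, TPM, median ratio and quantile scaling, limma without trend, a robust fit, a fit to the 2 groups of a comparison alone, a replicate block and leaving out each library.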

Additional observations from a re-analysis of the deposited data

Results flagged for a closer look

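The VCR difference of MAPK14 was -0.81 in NC cells (limma adjusted p = 0.0607) and 0.25 in PTPN21 cells (adjusted p = 0.594). Neither passed the threshold, and VCR and DMSO libraries overlapped in both constructs. Each NC+VCR library lay below the NC+DMSO mean, and each PTPN21+VCR library lay above the PTPN21+DMSO mean. The interaction was 1.06 on the log2 scale (95% interval 0.10 to 2.01, limma unadjusted p = 0.0337, adjusted p = 0.318), and it did not pass the threshold. It ran from 0.67 to 1.41 when 1 library was left out (adjusted p 0.238 to 0.549), both ends being reached by removing an NC+DMSO library, replicate 3 for the low end and replicate 1 for the high end. The same value stands for the reverse reading, the PTPN21 difference of MAPK14, in which each PTPN21+VCR library lay above the NC+VCR mean and each PTPN21+DMSO library below the NC+DMSO mean. That mean was raised by NC+DMSO replicate 3 (9.36 FPKM), without which the PTPN21 difference under DMSO turned to 0.27, as it did to 0.035 with median ratio scaling and 0.067 with quantile normalization.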

How the results depend on the processing

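The fall of GADD45A with VCR in PTPN21 cells passed the threshold in all 22 alternatives, at -0.72 to -0.42 on the log2 scale. MAP2K7 kept its direction in both VCR comparisons, and its call was also lost with no minimum FPKM (adjusted p = 0.0557 and 0.0881) and, in NC cells, with only the 2 groups compared (adjusted p = 0.0924). Quantile normalization lost it too, at -0.43 in NC cells (adjusted p = 0.183) and -0.60 in PTPN21 cells (adjusted p = 0.0668). With that setting MAP3K4 was called for VCR in PTPN21 cells (0.66, adjusted p = 0.0303). For VCR in NC cells the count of members called was 0 with no minimum FPKM, with median ratio scaling, with quantile normalization and with only the 2 groups compared, 3 with TPM scaling (GADD45A, MAP2K7 and MAPK14), and 0 to 3 when 1 library was left out. For VCR in PTPN21 cells it was 1 with a minimum of 5, which drops MAP2K7 from the test, and 1 to 2 when 1 library was left out. Libraries with the same replicate number showed no shared deviation (correlations of deviations -0.145 to 0.058), which does not settle whether they were paired. For VCR in PTPN21 cells the replicate block gave 1, without MAP2K7 (adjusted p = 0.0672). PTPN21+VCR against NC+VCR gave 1 (GADD45A) with a minimum of 5, and both construct comparisons gave 0 to 1 when 1 library was left out. In each case the cause was not tested beyond the genes or libraries left out.

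Differences that changed sign had all missed the threshold. For VCR in NC cells, GADD45A was 0.019 with median ratio scaling and MAPK9 0.042 with quantile normalization, and leaving out 1 library gave -0.17 to 0.51 for GADD45B and -0.064 to 0.36 for MAP2K4. For PTPN21+VCR against NC+VCR, MAPK8 was -0.026 with TPM scaling, and leaving out 1 library gave -0.38 to 0.28 for MAPK8, -0.33 to 0.080 for MAPK9 and -0.28 to 0.14 for MAP2K4. For PTPN21+DMSO against NC+DMSO, MAPK14 was 0.035 and 0.067 with median ratio scaling and quantile normalization, and -0.47 to 0.27 without 1 library.

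With 0.1 added in place of 1, the log2 ratio of GADD45A to GADD45B differed by 0.078 between PTPN21+VCR and NC+VCR (-0.21 to 0.11 without 1 library), and that of MAPK14 to MAPK11 by 0.24 for VCR in NC cells (-0.42 to 0.13 without 1 library, and -0.39 to 0.16 for PTPN21+DMSO against NC+DMSO). Without 1 library, the log2 ratio of MAPK8 to MAPK9 differed by -0.97 to 0.11 for VCR in NC cells, -0.13 to 0.19 for VCR in PTPN21 cells, -0.46 to 0.62 for PTPN21+VCR against NC+VCR and -0.67 to 0.16 for PTPN21+DMSO against NC+DMSO.

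Of the other genes named, 5 calls for VCR were lost when 1 library was left out. They were ARRB2 in NC cells without NC+DMSO replicate 3 or NC+VCR replicate 1 or 3 (adjusted p 0.0602 to 0.0687), TDG in NC cells without NC+DMSO replicate 1 or 2 or NC+VCR replicate 1 or 2 (0.0728 to 0.0974), and in PTPN21 cells MAPK8IP1 without PTPN21+DMSO replicate 1 or 2 or PTPN21+VCR replicate 3 (0.0544 to 0.0949), MEF2A without PTPN21+DMSO replicate 1 or 2 or PTPN21+VCR replicate 2 (0.0545 to 0.0729), and ITCH without PTPN21+DMSO replicate 1, 2 or 3 or PTPN21+VCR replicate 1 or 2 (0.0682 to 0.13). Of these, other settings also lost TDG in NC cells (no minimum FPKM 0.0602, TPM scaling 0.0916, only the 2 groups compared 0.0547), ARRB2 in NC cells (median ratio scaling 0.181, quantile normalization 0.0851, only the 2 groups compared 0.0633), ITCH (no minimum FPKM 0.105, TPM scaling 0.0553) and MAPK8IP1 (no minimum FPKM 0.0642).

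Over all genes, PTPN21+VCR against NC+VCR gave 211 calls, with 72 to 344 in the other settings and 43 to 354 without 1 library, and PTPN21+DMSO against NC+DMSO gave 735, with 40 to 1062 and 67 to 1345. NC+VCR against NC+DMSO gave 4192, and 2674 with only the 2 groups compared. The interaction gave 15, with 8 to 22 and 7 to 30. In PTPN21+DMSO against NC+DMSO, 41.8% of the calls were higher, and 73.6% with median ratio scaling.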
